A study of Homo sapiens with 6 samples.

Results

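The miRNAs hsa-miR-34a-5p, hsa-miR-34c-5p, hsa-miR-192-5p and hsa-miR-194-5p belong to the miR-34 family and to the miR-192 and miR-194 clusters, and their levels were followed upon depletion of the endonuclease APE1. They were taken by probe name from a panel of 798 human miRNA probes, so that they are 4 of 798, and each of the 4 had its own probe in every library. A549, an established human lung adenocarcinoma line, was transiently transfected with 100 pmol of an siRNA directed against APE1 (siAPE1, 3 libraries) or of a scramble control siRNA (siSCR, 3 libraries), and RNA was taken after 72 h. All libraries thus share the parental line, the transfection and the time, and the silencing was transient and not a knockout. The comparison asks whether these miRNAs depend on APE1, a protein of base excision repair. The panel has no probe for APEX1, the gene of APE1, so its depletion was not measured here.

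miRNAs are cut from longer host transcripts and repress the mRNAs they pair with. The miR-34 miRNAs repress mRNAs of cell cycle and survival proteins such as CDK6, MET, BCL2 and the deacetylase SIRT1, and miR-192 represses ZEB2, a repressor of E-cadherin. A mature miRNA selects its targets mainly through its seed, a short stretch near the 5′ end, so that miRNAs with the same seed share many targets.

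The mature sequences are shown because the seed sets which other probes of the panel can be read as relatives. They are the RefSeq sequences of build GRCh38.p14, written 5′ to 3′, with the seed (bases 2 to 8) in capitals.
hsa-miR-34a-5p: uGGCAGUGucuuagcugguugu
hsa-miR-449a: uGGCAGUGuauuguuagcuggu
hsa-miR-449b-5p: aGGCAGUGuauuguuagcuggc
hsa-miR-192-5p: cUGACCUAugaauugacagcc
hsa-miR-215-5p: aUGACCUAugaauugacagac
hsa-miR-194-5p: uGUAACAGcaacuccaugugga
miR-34a-5p had the same seed as miR-449a and miR-449b-5p, and miR-192-5p had the same seed as miR-215-5p. Over their 21 bases miR-192-5p and miR-215-5p differed at 2 positions, C1A and C20A (the base of miR-192-5p, the position counted from 1 at the 5′ end, the base of miR-215-5p). No other matched probe of the panel had the seed of miR-194-5p. Among the probes with a single miRNA name, 688 of 777 were matched to a RefSeq sequence, and 3 of the 4 members were. The miR-34 miRNAs, miR-34c-5p included, are known as a family by their common seed.

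The members come from 4 annotated loci. miR-34a-5p lies at chr1:9151735-9151756 on the minus strand, within the span of the non-coding host gene MIR34AHG. MIR34C, at chr11:111513439-111513515, is separated from MIR34B by 417 bases, and both lie within MIR34BHG. miR-192-5p lies at chr11:64891203-64891223 on the minus strand, within MIR194-2HG, and its precursor is 108 bases from that of MIR194-2. miR-194-5p is encoded at chr11:64891404-64891425 and again at chr1:220118206-220118227, both on the minus strand, where the precursor MIR194-1 is 194 bases from MIR215. The precursors differ while the mature miRNA is the same, as the RefSeq hairpins show with the mature miR-194-5p in capitals.
MIR194-2: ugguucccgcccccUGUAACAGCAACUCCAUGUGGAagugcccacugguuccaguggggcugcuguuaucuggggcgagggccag
MIR194-1: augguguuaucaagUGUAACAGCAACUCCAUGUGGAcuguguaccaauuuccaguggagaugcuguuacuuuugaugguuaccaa
A probe for miR-194-5p therefore cannot tell the loci apart, and the level given for it is the sum of both.

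The nCounter assay counts barcoded probes without amplification, and a level is given as a scaled count, the raw count divided by a library factor from spiked positive controls and 5 housekeeping mRNAs. The libraries held 312152 to 331524 counts in total in siAPE1 and 370087 to 488407 in siSCR, so that depth was lower in every siAPE1 library, and its part in the results was not tested. A miRNA counted as above background in a library when it exceeded the mean plus 2 SD of the 8 negative-control probes, a limit of 63.3 to 75.8 raw counts in siAPE1 and 53.1 to 70.6 in siSCR. In scaled counts the negative controls averaged 31.9 in siAPE1 and 24.4 in siSCR. The edgeR quasi-likelihood test was run on the 152 miRNAs above the limit in at least 3 libraries, with p-values adjusted over all 152 by the Benjamini-Hochberg method and a threshold of 0.1. With this scaling 50.7% of the tested miRNAs were lower in siAPE1 and 9.87% were higher, and the median log2 fold change of all tested miRNAs was −0.34. The members are read against this shift. Nothing in the labels tells if replicates were separate cultures, so p-values measure the spread between these libraries, which may be technical. Since RNA was taken from whole cultures, fewer cells of a kind and less RNA per cell cannot be told apart.

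All 4 members were tested. Of these, 2 were lower in siAPE1 at the threshold (miR-34c-5p and miR-194-5p), 0 were higher and 2 did not pass (miR-34a-5p and miR-192-5p), and their median log2 fold change was −0.33, beside −0.34 for all tested miRNAs. The values of miR-34a-5p, miR-192-5p and miR-194-5p lay near the median of all tested miRNAs, and their sign or their call changed with the scaling. miR-34c-5p was under the background limit in the 3 siAPE1 libraries and above it in the 3 siSCR libraries, and its fold change is read with that limit in view.

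**Figure D1:**
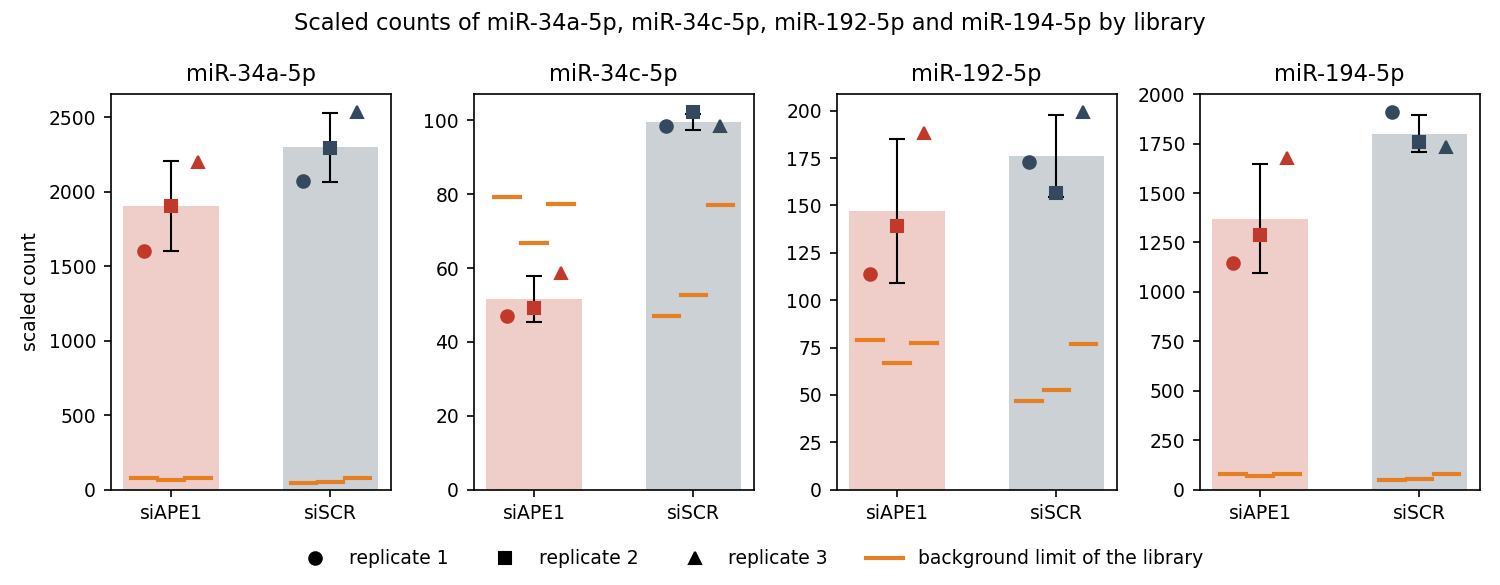
Scaled counts (y axis, linear, a separate scale for each miRNA) of the 4 members in siAPE1 and siSCR. Bars are group means, error bars the SD of 3 libraries, points the libraries by replicate number, and orange lines the background limit of each library; miR-34c-5p lies under its limit in the 3 siAPE1 libraries and above it in the 3 siSCR libraries.

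miR-34a-5p, the member of the miR-34 family that most tissues express, was the most abundant of the 4 by count. Its scaled counts were 1601, 1907 and 2202 in siAPE1 replicates 1 to 3 and 2069, 2294 and 2532 in siSCR replicates 1 to 3. The groups overlapped, since the third siAPE1 library lay above the lowest siSCR library. The means were 1903 ± 301 in siAPE1 and 2298 ± 232 in siSCR (SD, n = 3 each). The log2 fold change was −0.27 ± 0.18 (SE), with a 95% confidence interval of −0.63 to 0.08 and an edgeR adjusted p of 0.183. Without siAPE1 replicate 3 it passed the test, at −0.39 with an edgeR adjusted p of 0.0307. Ordered by raw count, miR-34a-5p was at rank 24, 23 and 24 of the 798 miRNA probes in siAPE1 and at rank 26 in each siSCR library. It took 0.786%, 0.864% and 0.915% of all miRNA counts in siAPE1, against 0.871%, 0.931% and 0.870% in siSCR. The place of miR-34a-5p among the miRNAs of a library thus differed little between the groups, and these shares overlapped.

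miR-34c-5p, which derives from the MIR34B and MIR34C transcript and has its best known expression in testis and airway epithelium, was much lower in count. Its raw counts were 45, 47 and 48 in siAPE1, each under the limit of its library, and 111, 137 and 87 in siSCR, each above it. In each siAPE1 library 1 of the 8 negative controls had at least as many counts as miR-34c-5p, and in each siSCR library 0 had. The siAPE1 values therefore cannot be separated from background one library at a time, while the siSCR values can. Scaled counts were 47.0, 49.2 and 58.7 in siAPE1 and 98.4, 102 and 98.4 in siSCR, with no overlap. Such a gap downward was seen in 52.6% of the tested miRNAs and a gap upward in 7.24%. The means were 51.6 ± 6.23 in siAPE1 and 99.7 ± 2.17 in siSCR (SD, n = 3 each). The log2 fold change was −0.95 ± 0.18 (SE), with a 95% interval of −1.30 to −0.61 and an edgeR adjusted p of 7.58e-07.

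Background is part of each of these counts and compresses the fold change of a dim probe. After subtraction of the negative-control mean, miR-34c-5p had 14.4, 19.8 and 25.1 scaled counts in siAPE1 and 76.7, 80.3 and 68.9 in siSCR. On these values limma gave a log2 fold change of −1.97 (95% interval −2.39 to −1.54), and the sign was the same as without subtraction. miR-34c-5p entered the test only through the siSCR libraries. Such an entry favours a lower value in siAPE1, though it does not force one, so the call lends no separate support. Of the 18 tested miRNAs above the limit in all 3 siSCR libraries and in no siAPE1 library, 16 were lower at the threshold (88.9%), with a median log2 fold change of −0.94. The value of miR-34c-5p was close to that median.

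miR-192-5p, otherwise best known from liver, kidney and gut epithelium, was above the limit in all 6 libraries. Its scaled counts were 114, 139 and 188 in siAPE1 and 173, 157 and 199 in siSCR. The groups overlapped, with the third siAPE1 library above the lower pair of siSCR libraries. The means were 147 ± 37.9 in siAPE1 and 176 ± 21.5 in siSCR (SD, n = 3 each), and the spread within siAPE1 was wide (CV 25.8%, against 12.2% in siSCR). The log2 fold change was −0.26 ± 0.18 (SE), with a 95% interval of −0.61 to 0.09 and an edgeR adjusted p of 0.203. Without siAPE1 replicate 3 it passed, at −0.47 with an edgeR adjusted p of 0.0251. After background subtraction it also passed, at −0.44 with a limma adjusted p of 0.0857.

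miR-194-5p, its neighbour on chromosome 11, had 1145, 1287 and 1677 scaled counts in siAPE1 and 1908, 1757 and 1735 in siSCR. The groups did not overlap, although the third siAPE1 library came within a short distance of the lowest siSCR library. A gap downward was shared by 52.6% of the tested miRNAs with this scaling. The means were 1369.8 ± 275 in siAPE1 and 1800.0 ± 94.1 in siSCR (SD, n = 3 each). The log2 fold change was −0.39 ± 0.18 (SE), with a 95% interval of −0.75 to −0.04 and an edgeR adjusted p of 0.0507. Hence miR-194-5p was lower at the threshold of 0.1, by about as much as the median tested miRNA. The call was lost when any of 4 libraries was left out, with edgeR adjusted p of 0.182 and 0.223 without siAPE1 replicates 1 and 2, and 0.146 and 0.139 without siSCR replicates 1 and 2.

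Because the housekeeping factor moves all miRNAs of a library together, the members were also compared under other scalings. TMM sets the scale from the miRNAs alone, and with it 30.3% of the tested miRNAs were lower in siAPE1 and 30.9% higher, with a median of 0.02. On this scale 1 member was lower (miR-34c-5p, log2 fold change −0.60, edgeR adjusted p = 0.00219), 0 were higher and 3 did not pass. The values of the other members were 0.083 for miR-34a-5p, 0.091 for miR-192-5p and −0.056 for miR-194-5p, with edgeR adjusted p of 0.328, 0.540 and 0.656. With the positive controls only, 84.2% of the tested miRNAs and all 4 members were lower, 3.95% were higher, and the median was −0.75 over all tested miRNAs and −0.77 over the members. The log2 fold changes of miR-34a-5p, miR-192-5p and miR-194-5p were then −0.69, −0.69 and −0.85. Across these settings those members followed the shift of all miRNAs. The sign of miR-34a-5p and miR-192-5p turned with the scale, whereas that of miR-194-5p stayed negative and its call was lost. The values of miR-34c-5p were negative on each scale, but it was tested only because of its siSCR libraries, so its passes do not set it apart from the other members.

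**Figure D2:**
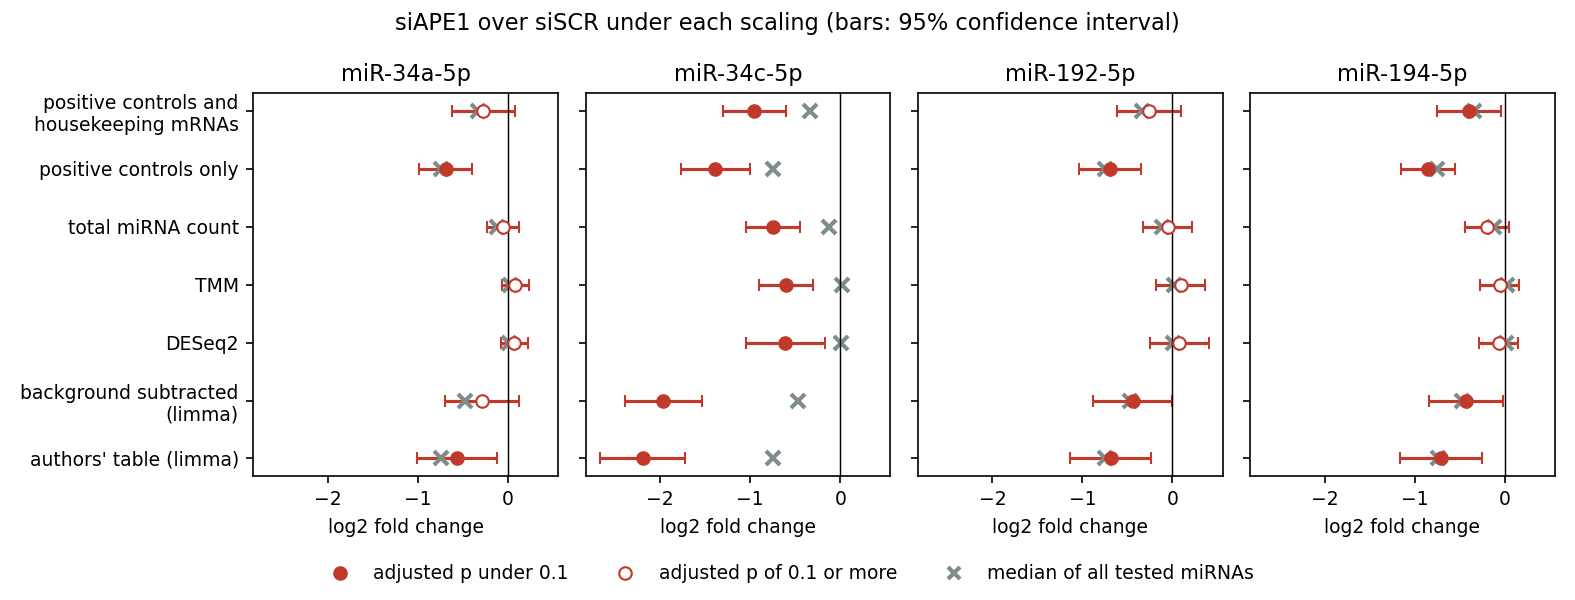
Log2 fold change of siAPE1 over siSCR (x axis) for each member under 7 scalings or background treatments (rows), with 95% confidence intervals as bars. Filled points have an adjusted p under 0.1 and crosses mark the median of all tested miRNAs; 3 members stay near the cross, and miR-34c-5p, at background in siAPE1, lies to the left of it in each row.

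Another view uses neither the positive controls nor the housekeeping mRNAs. It is the raw count of a member over the median raw count of the tested miRNAs in the same library, on a log2 scale. That median sets the scale from the miRNAs alone, as TMM does, so this view is not independent of TMM. miR-34a-5p was at 2.90, 3.06 and 3.06 in siAPE1 and 2.87, 2.90 and 2.84 in siSCR, a difference of 0.14. The groups did not overlap, though only barely at their nearest libraries, and a gap upward on this scale was seen in 36.8% of the tested miRNAs. miR-34c-5p was at −2.19, −2.21 and −2.17 in siAPE1 and −1.53, −1.59 and −1.84 in siSCR, a difference of −0.54 without overlap, as in 27.0% of the tested miRNAs. For each of these differences the exact two-sided permutation p was 0.1, the smallest that 3 libraries against 3 can give. That of miR-34c-5p rests on the same counts by which it entered the test, high in siSCR only, and so lends no separate support. miR-192-5p averaged −0.70 in siAPE1 and −0.84 in siSCR (exact permutation p = 0.5), and miR-194-5p averaged 2.53 in siAPE1 and 2.52 in siSCR (exact permutation p = 1). These last groups overlapped.

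Ratios of members within a library were then taken for the miR-34 family and for the miR-192 locus, 2 ratios in all. Probes differ in efficiency, so a ratio gives no relative amount of the miRNAs, and only its change between groups is read. The raw count of miR-34c-5p was 2.94%, 2.58% and 2.67% of that of miR-34a-5p in siAPE1, against 4.75%, 4.45% and 3.89% in siSCR. All siAPE1 ratios were lower than all siSCR ratios. The mean log2 ratio was −5.20 ± 0.10 in siAPE1 and −4.52 ± 0.15 in siSCR (SD, n = 3 each), a difference of −0.68 or 0.626-fold, with an exact two-sided permutation p of 0.1. After subtraction of background the ratios were 0.916%, 1.05% and 1.16% in siAPE1 and 3.74%, 3.54% and 2.75% in siSCR, and the log2 difference was −1.68. Since miR-34c-5p is at background in siAPE1, the size of this difference depends on the background taken off, while its sign was negative with and without it. As miR-34c-5p entered the test only through its siSCR libraries, a lower ratio in siAPE1 was favoured beforehand. Neither the gap nor its p therefore lends separate support.

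For miR-194-5p over miR-192-5p the log2 ratio was 3.33, 3.21 and 3.15 in siAPE1 and 3.46, 3.49 and 3.12 in siSCR. The third siSCR library was the lowest of all 6 and the groups overlapped. The means were 3.23 ± 0.09 in siAPE1 and 3.36 ± 0.20 in siSCR (SD, n = 3 each), a difference of −0.13 (exact two-sided permutation p = 0.4), and after background subtraction the difference was 0.015 (p = 1, exact permutation). No unequal change of the neighbours was thus detectable with these libraries.

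**Figure D3:**
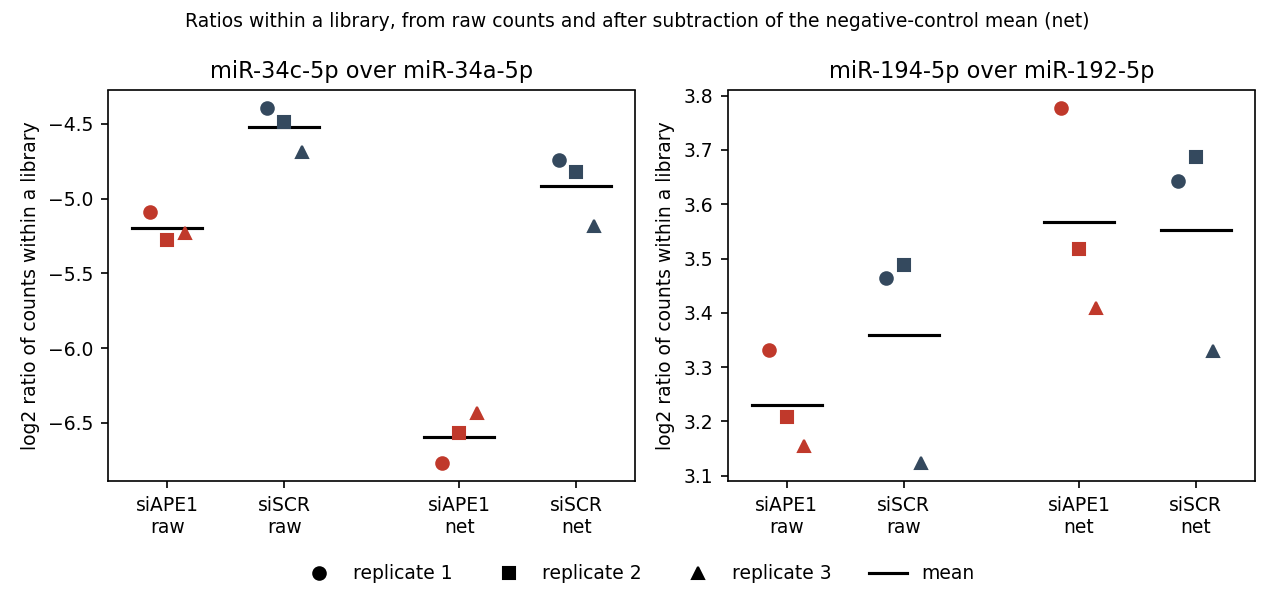
Log2 ratio of counts within a library (y axis) for miR-34c-5p over miR-34a-5p (left) and miR-194-5p over miR-192-5p (right), in siAPE1 and siSCR, from raw counts and after subtraction of the negative-control mean (net). Points are libraries by replicate number and lines are means of 3; on the left the groups are apart in both forms, on the right they overlap in both.

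The panel probes of the member loci, of the shared seeds and of the miR-449 cluster gave no usable level. There were 6 such probes, and 0 of them exceeded the background limit in any library, the highest raw count being 46. miR-215-5p, the near copy of miR-192-5p, averaged 44.3 ± 3.60 scaled counts in siAPE1 and 35.5 ± 9.11 in siSCR (SD, n = 3 each). The miR-449 miRNAs, known from multiciliated airway cells, averaged 18.0 ± 4.17 in siAPE1 and 15.4 ± 1.76 in siSCR for miR-449a, 32.1 ± 7.03 in siAPE1 and 27.3 ± 1.19 in siSCR for miR-449b-5p, and 23.9 ± 1.89 in siAPE1 and 17.3 ± 7.59 in siSCR for miR-449c-5p, whose bases 2 to 8 are not those of miR-34a-5p. The other products of the MIR34B and MIR34C transcript were also under the limit. miR-34b-3p averaged 25.0 ± 10.0 in siAPE1 and 13.7 ± 1.96 in siSCR, and miR-34c-3p, the opposite arm of the miR-34c precursor, 25.0 ± 2.69 in siAPE1 and 27.6 ± 5.63 in siSCR. miR-34c-5p was therefore the only one of the 3 measured products of that transcript above background in any library.

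**Figure D4:**
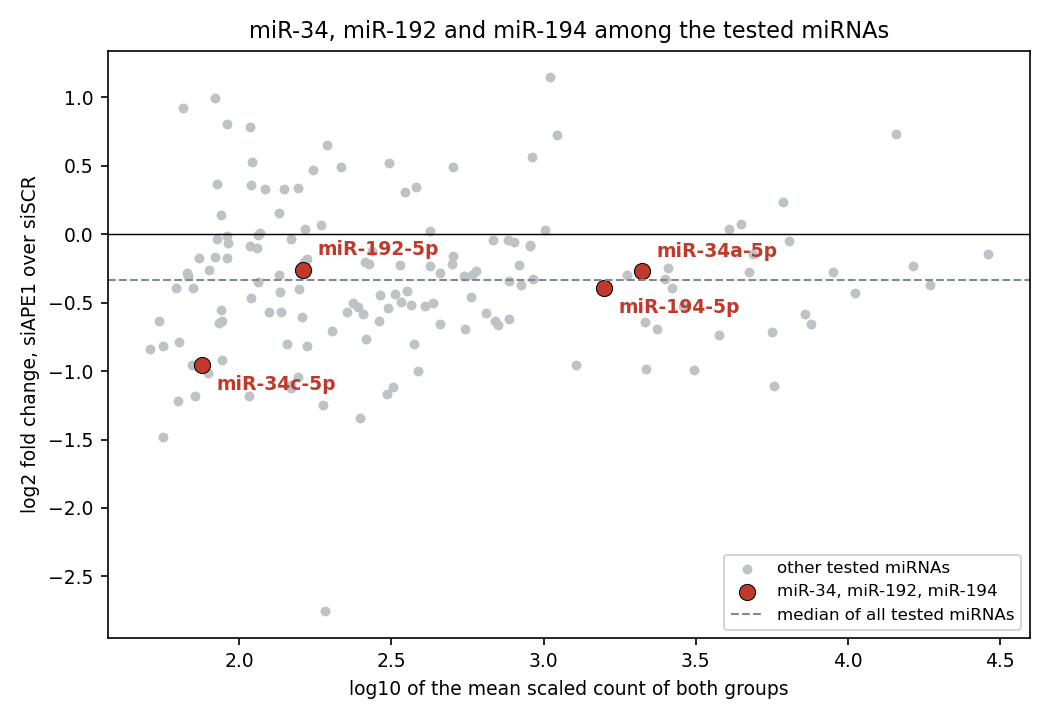
Log2 fold change of siAPE1 over siSCR (y axis) against log10 of the mean scaled count of both groups (x axis) for the 152 tested miRNAs, with the members in red and the median of −0.34 as a dashed line. miR-34a-5p, miR-192-5p and miR-194-5p lie near the dashed line and miR-34c-5p lies well under it at the dim end.

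The 2 tested miRNAs most like each member were found by the root mean square difference of mean-centred log2 scaled counts over the 6 libraries. The libraries share 1 scaling factor per library, so nearness in part reflects that factor. The nearest to miR-34a-5p were miR-423-3p (0.041) and miR-99a-5p (0.045), against a median distance of 0.203 to all tested miRNAs. The nearest to miR-192-5p were miR-421 (0.066) and miR-200b-3p (0.080), and those to miR-194-5p were miR-9-5p (0.053) and miR-181a-5p (0.073). The nearest to miR-34c-5p were miR-183-5p (0.085) and miR-99b-5p (0.102). The median distances to all tested miRNAs were 0.244 for miR-192-5p, 0.239 for miR-194-5p and 0.337 for miR-34c-5p. Their scaled counts averaged 121 ± 11.9 in siAPE1 and 213 ± 12.0 in siSCR for miR-183-5p and 870 ± 149 in siAPE1 and 1684 ± 159 in siSCR for miR-99b-5p (SD, n = 3 each). Among the members themselves, miR-34a-5p was nearer to miR-192-5p (0.119) than to its own family member miR-34c-5p (0.347), and miR-192-5p and miR-194-5p were 0.144 apart. The distance of 0.347 was close to the median of 0.337 for miR-34c-5p, which was at background in siAPE1. It therefore tells nothing about the family.

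The panel was also read for the cell types it could hold. Of 9 epithelial marker miRNAs 6 were above the limit in at least 1 library and 4 were tested, of which 3 were lower in siAPE1 (miR-182-5p, miR-183-5p and miR-96-5p, which come from a common transcript), beside 50.7% of all tested miRNAs. The fourth, miR-200b-3p, did not pass (−0.31, edgeR adjusted p = 0.118). The summed scaled count of the 9 was 557 to 663 in siAPE1 and 843 to 970 in siSCR, whereas miR-141-3p, miR-205-5p and miR-429 did not exceed the limit. The marker miR-200a-3p averaged 64.0 ± 7.33 in siAPE1 and 57.9 ± 3.42 in siSCR, and the groups overlapped. For miR-200c-3p the means were 49.7 ± 11.3 in siAPE1 and 68.4 ± 5.54 in siSCR, without overlap (SD, n = 3 each). Both exceeded the limit in 2 siSCR libraries and 0 siAPE1 libraries and were not tested. The negative controls were also higher in siAPE1 in scaled counts, so the direction of miR-200a-3p is not read. Of 13 marker miRNAs of other cell types 2 exceeded the limit in any library, and the summed scaled count was 782 to 846 in siAPE1 and 897 to 1208 in siSCR. These were the endothelial miR-126-3p, above the limit in all 6 libraries with 422 ± 36.9 in siAPE1 and 683 ± 146 in siSCR (log2 fold change −0.69, edgeR adjusted p = 0.000199), and the leukocyte miR-142-3p, above it in 1 siSCR library. The blood, liver, muscle and neuron markers miR-451a, miR-223-3p, miR-122-5p, miR-1-3p and miR-124-3p stayed under it. The epithelial sum thus moved in the same direction as miR-34c-5p, but so did the sum of the other markers and 50.7% of the tested miRNAs. The fall of the sum of the other markers lies in miR-126-3p, the only one of them tested. Most other probes of that list were near background and averaged more in siAPE1. The part of the epithelial sum in the result was not tested.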

How the data were processed

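RNA (100 ng) of 3 siAPE1 and 3 siSCR samples of A549 was profiled with the nCounter human v3 panel of 822 probes (798 miRNAs, 5 housekeeping mRNAs, 8 negative controls, 6 positive controls, 5 spike-in probes). Per the labels and the values, each deposited library holds uncorrected raw counts. A further table deposited by the authors has values that are a score. Its 24 control and housekeeping entries equal the raw counts. Among the 126 miRNA probes with a score of at least 30 in every library, each score was a straight line of the raw count common to all libraries (largest residual 0.640). The table thus carries no scaling between libraries and was used only as an alternative. Its rows were matched by row order, which that line bears out.

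Library factors were the positive-control slope factor times the housekeeping factor, with geometric mean 1. They served as offsets in edgeR 4.0.16 (robust quasi-likelihood test, two-sided, R 4.3.3). Of 798 miRNAs 152 were tested and 646 were not. Alternatives were TMM, DESeq2 1.42.0 size factors and test, positive controls only, total miRNA count, no filter, a limit passed in all 6 libraries, background subtraction (floor 1 count) and the deposited score (log2(value + 1)) with limma 3.58.1, a replicate block, and leaving out each library. Tested on simulated data of 152 genes, the siAPE1 against siSCR fit called 100% of log2 changes of 1, 79.2% of 0.5 and 0.980% of unchanged genes. Intervals cover 95%. No replicate pair was identical (chi-square 791 to 2597 on 151 degrees of freedom).

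The members and lists were chosen with earlier results of these data known. Named were the 4 members, every probe of the same locus or seed or of the miR-449 cluster, and the 2 nearest profiles of each member; markers were named from their lists. Further lists that depend on an item withheld from this text are not reported here.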

Additional observations from a re-analysis of the deposited data

How the results depend on the processing

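miR-34c-5p was lower at the threshold in all 14 alternatives that tested it (log2 fold change −2.20 to −0.60). Apart from the test with no filter, it entered only through its siSCR libraries. With no filter (−0.95, edgeR adjusted p = 1.33e-05) 74 of 798 probes were lower and the median was 0.22. That pass rests on the same counts, at background in siAPE1. None of these passes therefore lends separate support. miR-34c-5p was not tested when the limit had to be passed in all 6 libraries. For miR-34a-5p the value turned to 0.083 with TMM and 0.072 with DESeq2, and passed at −0.69 with positive controls only and −0.57 in the authors' table. miR-192-5p turned to 0.091 with TMM and 0.078 with DESeq2 and passed at −0.69 with positive controls only, −0.44 after background subtraction and −0.69 in the authors' table. miR-194-5p did not pass with TMM (−0.056), DESeq2 (−0.066), total miRNA count (−0.20) or no filter (−0.39, adjusted p = 0.103, with more miRNAs tested). Leaving out 1 library gave −0.39 to −0.16 for miR-34a-5p and −0.47 to −0.10 for miR-192-5p, which passed only without siAPE1 replicate 3 (edgeR adjusted p = 0.0307 and 0.0251), −1.05 to −0.89 for miR-34c-5p, and −0.57 to −0.28 for miR-194-5p. The ratio of miR-34c-5p to miR-34a-5p differed by −1.68 after background subtraction and −1.63 in the authors' table (−0.76 to −0.61 leaving out a library), and that of miR-194-5p to miR-192-5p by 0.015 after background subtraction (−0.25 to −0.06 leaving out a library). Of the 152 tested miRNAs 15 were higher, against 47 with TMM, 39 with DESeq2 and 6 with positive controls only. The number was 32 with total miRNA count and 7 in the authors' table (9 without siSCR replicate 1 to 20 leaving out another library). Lower miRNAs numbered 77 of 152, against 46 with TMM, 40 with DESeq2 and 128 with positive controls only. Their number was 65 with total miRNA count and 113 in the authors' table (63 to 95 leaving out a library). With no filter 78 were higher and 74 lower, of 798. The signs also turned for miR-423-3p (0.14 with TMM, 0.13 with DESeq2), miR-99a-5p (0.13 and 0.12), miR-421 (0.17, 0.16, 0.028 with total miRNA count, −0.38 to 0.0086 leaving out a library), miR-200b-3p (0.048 and 0.035) and miR-181a-5p (0.014 and 0.0035). Beyond the scaling itself the cause was not tested. Samples with the same replicate number did not deviate together (correlations −0.59, −0.01 and −0.49). With so few libraries per group this cannot exclude a pairing. The scaled counts of miR-34a-5p rose with the replicate number in both groups. Its raw counts did not, at 1533, 1821 and 1800 in siAPE1 and 2335, 3076 and 2238 in siSCR, so the rise depends on the library factors. With the replicate block miR-34a-5p was at −0.28 (adjusted p = 0.0136, edgeR) and miR-192-5p at −0.28 (adjusted p = 0.0628, edgeR), and no other member's call changed. All 4 members were then lower, beside 96 lower and 20 higher of the 152 tested miRNAs. Counts near the negative controls limit what can be said of miR-34c-5p and of the relatives by seed.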
